A study of Mus musculus with 2 samples.

Results

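Matrix-type tumor cells were taken here as the tumor cells of EMT6 tumors in which transcripts of Mgp, Omd, Ogn and Enpp2 made up the largest share of the cell's RNA. A tumor cell was a cell with at least 200 genes, under 20% mitochondrial transcripts, at least 2000 unique molecular identifiers (UMIs, each standing for 1 captured transcript) and at least 2 UMIs of the keratins Krt8 and Krt18. Cells with 0.02% or more of their UMIs from the immune genes Tyrobp and Ptprc or from the fibroblast collagen Col5a2, with 2 or more UMIs of Il24, or with 0.05% or more from the mitotic genes Cenpf, Ube2c, Cdc20, Cenpa and Prc1 were left out. Within each library the tumor cells were ordered by the summed share of the 4 genes, and the highest 10% were kept. This gave 614 of 6143 tumor cells in the Olaparib + LLY-283 library and 155 of 1545 in the Combo library, together 769 of 7688 tumor cells and of 23657 cells in all. They are called members below, and the remaining 5529 and 1390 tumor cells are the cells they are compared with.

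EMT6 is a mouse mammary carcinoma line, labelled as triple-negative breast cancer, and its tumors were grown under the skin of BALB/c mice from 200000 injected cells. Mice of both groups received LLY-283, an inhibitor of the arginine methyltransferase PRMT5, at 50 mg/kg, given for 3 days and then withheld for 4, and Olaparib, an inhibitor of poly(ADP-ribose) polymerase, at 50 mg/kg. The Combo group also received 200 µg of an antibody to PD-1 every 3 days. Tumors of 3 mice were pooled for the single library of each group, and no untreated tumor is among the samples, so a difference between groups cannot be told apart from one between pools or libraries, and no test or p-value is given. Brackets hold 95% intervals that cover counting error only, exact Poisson for levels, Clopper-Pearson for shares and a conditional Clopper-Pearson interval for ratios. The libraries held 16115 and 7542 cells with 147214934 and 162522700 UMIs, and 39 cell barcodes were found in both, of which 2 were tumor cells and 0 were members.

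Mgp encodes matrix Gla protein, a small secreted protein that depends on vitamin K and restrains calcification of soft tissue. Ogn and Omd encode osteoglycin and osteomodulin, secreted small leucine-rich proteoglycans that bind collagen or bone matrix, and Enpp2 encodes autotaxin, the enzyme that releases the lipid mediator lysophosphatidic acid outside the cell. These genes are best known from bone, cartilage, vessel wall and fibroblasts. EMT6 cells carry keratins but grow as spindle-shaped, mesenchymal cells.

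The share that chose the members varied without a gap. It had a median of 0.0575% of UMIs in Olaparib + LLY-283 and 0.0566% in Combo, a 95th percentile of 0.338% and 0.361%, and a maximum of 3.36% and 3.06%. The last member of the Olaparib + LLY-283 library had 22 of 9445 UMIs from the 4 genes (0.2329%) and the first cell outside had 23 of 9878 (0.2328%). In Combo these were 76 of 30976 (0.2454%) and 132 of 53869 (0.2450%). The members are the upper end of a continuous range.

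**Figure D1:**
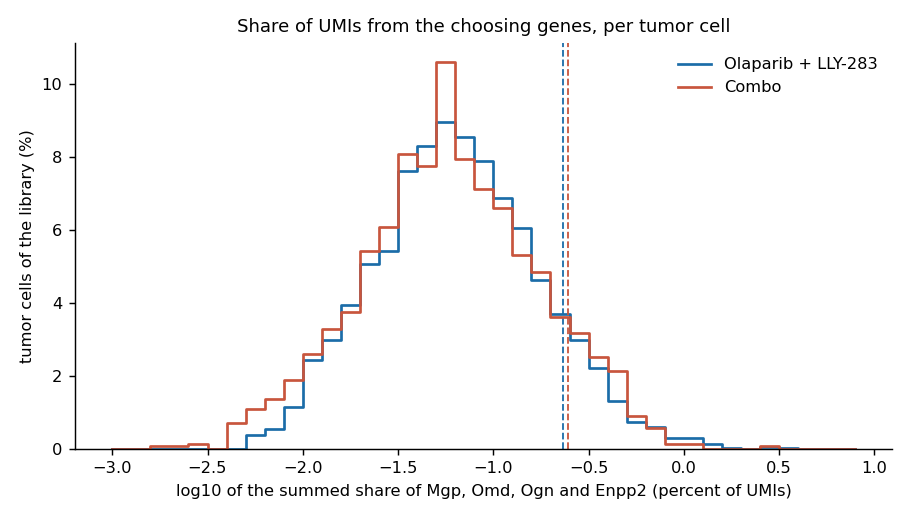
Distribution of the summed share of Mgp, Omd, Ogn and Enpp2 over the tumor cells of each library. The x axis is log10 of the share in percent of UMIs, the y axis is the percentage of the library's tumor cells in each step, and dashed lines mark the share of the last member. Cells without a UMI of these genes (413 and 30) cannot be drawn on this axis, and the curve falls smoothly across both lines.

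The chosen genes are given first as a description, since they define the members. Mgp was at 2243 CPM (UMIs of the gene scaled to the same total of UMIs in each kind of cell) in members and 144 CPM in other tumor cells of Olaparib + LLY-283, and at 1208 and 73.3 CPM in Combo. Ogn was at 1739 and 414 CPM in Olaparib + LLY-283 and at 2526 and 505 CPM in Combo. The Mgp level of the members was thus lower in Combo and their Ogn level higher. Omd was at 95.8 and 11.8 CPM and then at 109.8 and 10.0 CPM, and Enpp2 at 194.8 and 68.1 CPM and then at 234 and 64.7 CPM.

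Most members were carried by 1 of 2 genes. Ogn alone had the most UMIs of the 4 in 336 members (54.7%) of Olaparib + LLY-283 and 120 (77.4%) of Combo, and Mgp alone in 256 (41.7%) and 33 (21.3%). Enpp2 led in 2 members of each library and Omd in 0, and in 20 and 0 members genes were tied for the most. The 5 members with the most Mgp held 31.7% of its UMIs in members of Combo and 10.4% in those of Olaparib + LLY-283. These shares do not compare the libraries, since 5 cells are a larger part of 155 members than of 614. For Ogn, the 5 members with the most Ogn held 10.6% in Combo and 3.07% in Olaparib + LLY-283, with the same limit.

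To read the genes apart from the choice, each UMI was put at random in 1 of 2 sets, members were chosen with the first set and levels were read in the second. The 4 genes together were then at 3914 CPM in the chosen cells and 658 CPM in the rest of Olaparib + LLY-283, a ratio of 5.95 [5.803 to 6.101]. In Combo they were at 3992 and 663 CPM, a ratio of 6.02 [5.88 to 6.17]. The high share of a cell was thus found again in UMIs that had not chosen it. Of the cells chosen in this way, 83.6% and 91.6% were also members.

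Each gene was also read in cells chosen by the other 3. Omd was at 88.2 CPM in cells chosen by Mgp, Ogn and Enpp2 and at 12.4 CPM in the rest of Olaparib + LLY-283, a ratio of 7.12 [6.29 to 8.05], and in Combo the ratio was 9.31 [8.27 to 10.5]. For Mgp the ratios were 3.53 [3.41 to 3.65] and 3.95 [3.78 to 4.13], for Enpp2 2.25 [2.07 to 2.43] and 2.86 [2.66 to 3.06], and for Ogn 2.16 [2.09 to 2.22] and 2.63 [2.56 to 2.69]. All 8 ratios were above 1, so that each of the 4 genes was higher in cells chosen without it. Of the cells chosen without Omd, 96.7% and 96.1% were members, and without Enpp2 94.0% and 94.8%. Without Mgp these shares were 67.1% and 80.0%, and without Ogn 67.3% and 63.2%. Since the 4 genes were picked with earlier results of these data known, the ratios are a description and not a test that the genes go together.

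When the tumor cells were split into 10 groups of equal size by the share in the first set of UMIs, the second set showed a graded order. Mgp in Olaparib + LLY-283 was at 60.9 CPM in group 1, 95.5 CPM in group 5, 438 CPM in group 9 and 2098 CPM in group 10. Ogn was graded more evenly, from 182 CPM in group 1 to 356, 1053 and 1553 CPM in groups 5, 9 and 10. The step from group 9 to group 10 was thus steeper for Mgp than for Ogn. In Combo, Mgp was at 17.6, 39.8, 279 and 1184 CPM and Ogn at 89.9, 427, 1383 and 2492 CPM in the same groups. Krt8, which marks the tumor cells, ran the other way, from 1069 to 622 CPM and from 1117 to 385 CPM between groups 1 and 10.

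**Figure D2:**
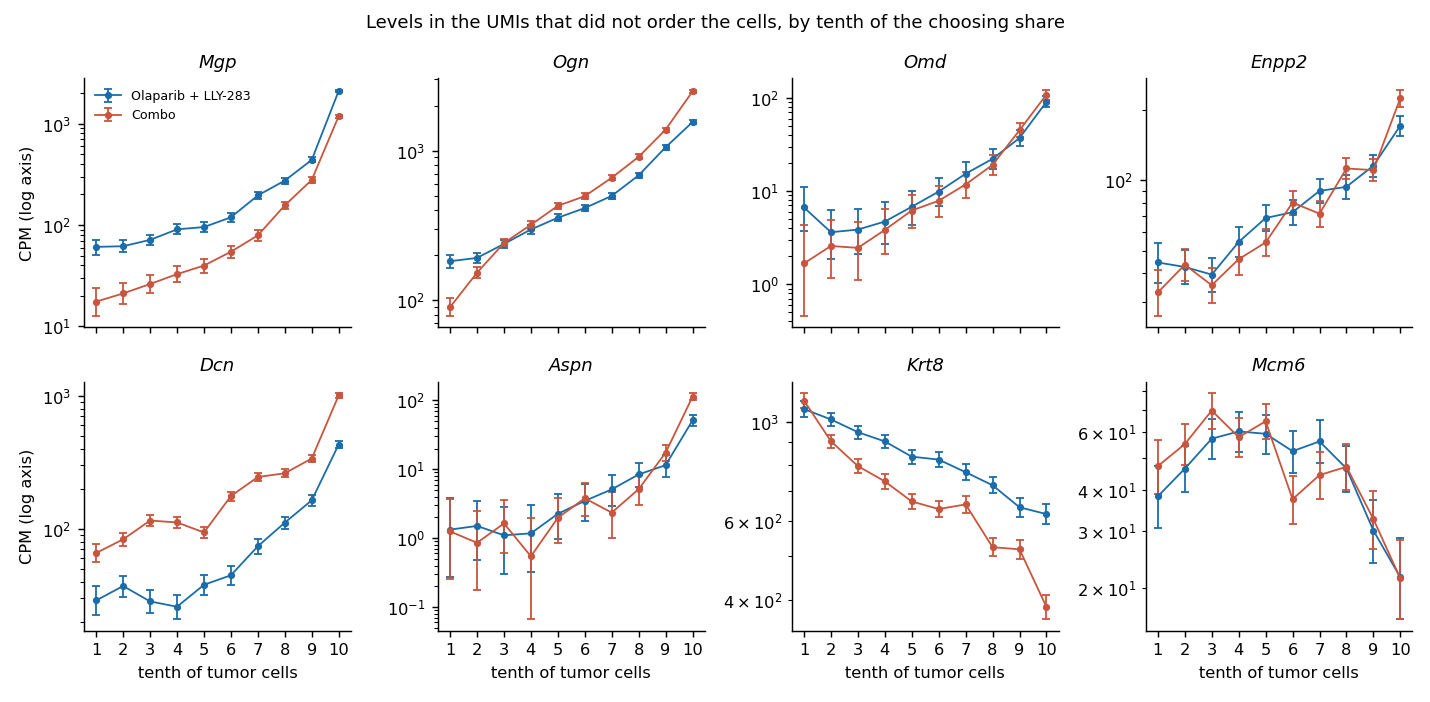
Levels of 8 genes in 10 equal groups of tumor cells ordered by the summed share of Mgp, Omd, Ogn and Enpp2, with the level read in UMIs that did not order the cells. The x axis is the group from lowest to highest share, the y axis is CPM on a log scale, points are summed levels and bars are 95% Poisson intervals. Mgp, Ogn, Omd, Enpp2, Dcn and Aspn are highest in group 10 of both libraries, Krt8 is lowest there, and Mcm6 is at 21.6 and 21.4 CPM in group 10.

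Members and other cells differed in depth, and so did the libraries. Members had a median of 6422 UMIs per cell in Olaparib + LLY-283 and 31322 in Combo, against 8922 and 43122.5 in other tumor cells. Mitochondrial transcripts made up a median of 1.33% and 1.60% of UMIs in members and 1.01% and 1.16% in other tumor cells. Shares of cells with a UMI are therefore given after thinning every cell to 2000 UMIs. Mgp was then found in 76.9% of members, 20.5% of other tumor cells and 12.4% of immune cells of Olaparib + LLY-283, and in 54.2%, 11.2% and 4.64% of those of Combo. Omd was found in 17.1%, 2.73% and 1.08% and in 15.5%, 1.65% and 0.304%. Immune cells (558 and 1315, with medians of 3224 and 5355 UMIs) are not known to make these genes, and their shares are given as background. Free RNA and doublets cannot be told apart in them, and 10.2% and 2.97% of them had the highest doublet scores. The higher shares of members are a description, since these genes chose them. Without thinning, Mgp was found in 90.4% and 91.0% of members.

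Detection of several of the choosing genes in the same cell is likewise a description, since members were chosen by their sum. After thinning, at least 1 UMI of each of the 4 genes was found in 30 members (4.89%) of Olaparib + LLY-283 and 8 (5.16%) of Combo, and in 0 of 5529 and 0 of 1390 other tumor cells, where the limits that a count of 0 allows, 3 cells of the total, are 0.0543% and 0.216%. Exactly 3 of the genes were found in 25.4% and 20.6% of members and in 2.04% and 1.51% of other tumor cells. With all UMIs, the 4 genes were found together in 23.3% and 68.4% of members and in 3.62% and 15.3% of other tumor cells. The difference between the libraries in the unthinned shares went with their depth.

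Omd and Ogn lie side by side in a cluster of proteoglycan genes on chromosome 13, and Aspn, the gene next to them, was high in the same cells although the rule did not use it. In GENCODE M21 (mm10) Aspn, which encodes asporin, lies at chr13:49544443-49567565, Omd at chr13:49582462-49592822 and Ogn at chr13:49608046-49624501, all on the plus strand and within 80059 bases. Mgp lies at chr6:136872435-136875823 and Enpp2 at chr15:54838901-54952892, both on the minus strand. Aspn was at 54.9 CPM in members and 3.38 CPM in other tumor cells of Olaparib + LLY-283, a ratio of 16.2 [13.4 to 19.7], and at 118.4 and 3.59 CPM in Combo, a ratio of 32.9 [28.2 to 38.6]. Immune cells, given as background, had 5.34 and 2.10 CPM of Aspn. The ratio in Olaparib + LLY-283 thus starts from a level not above background. The 5 members with the most Aspn held 32.5% of its member UMIs in Combo, which had 155 members. In Olaparib + LLY-283, with 614 members, they held 13.4%, so that the 2 shares are not on the same footing. Aspn had fewer than 500 UMIs over the tumor cells of Olaparib + LLY-283 and so does not enter the counts of genes below.

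The other neighbors were closer to a ratio of 1 or low. Ecm2, the next proteoglycan-like gene on that side, had 14 and 23 UMIs in members and ratios of 2.72 [1.37 to 4.75] and 3.37 [2.00 to 5.31]. Cenpp, which spans Aspn, Omd and Ogn on the opposite strand and encodes a centromere protein, was at 6.30 and 6.61 CPM in members and 11.8 and 9.72 CPM in other tumor cells, and whether counting used the strand is not given in the sources used here. Iars, a tRNA synthetase gene, had ratios of 0.834 and 0.640, and Nol8, Ippk and Bicd2 had ratios between 0.841 and 1.71. Of the 5 neighbors with at least 500 UMIs in each library, 0 were 1.5-fold higher and 0 were 1.5-fold lower in both libraries.

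The starts of the 3 proteoglycan genes are shown because they neighbor each other. Omd and Ogn were used to choose the members, and Aspn was not. The sequences are the 150 bases before the RefSeq start (GRCm38.p6, plus strand), at chr13:49544293-49544442 for Aspn, chr13:49582312-49582461 for Omd and chr13:49607865-49608014 for Ogn. Capitals mark a match on either strand to 1 of 3 motifs that were searched, the TATA box TATAAA, the AP-1 site TGANTCA and the RUNX core TGTGGT.
Aspn: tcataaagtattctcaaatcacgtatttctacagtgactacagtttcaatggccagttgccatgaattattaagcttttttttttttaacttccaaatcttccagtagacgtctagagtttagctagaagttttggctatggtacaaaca
Omd: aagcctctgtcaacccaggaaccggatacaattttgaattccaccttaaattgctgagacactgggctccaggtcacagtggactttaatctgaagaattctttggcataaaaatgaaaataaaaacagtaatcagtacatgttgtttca
Ogn: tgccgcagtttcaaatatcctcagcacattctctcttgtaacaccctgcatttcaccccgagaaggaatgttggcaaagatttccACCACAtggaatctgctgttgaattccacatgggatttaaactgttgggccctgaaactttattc
The only match was 1 copy of the RUNX core in Ogn, read on the minus strand and starting 65 bases before the start. Over all 27025 promoters of the same length, 8.08% held TATAAA, 4.27% held TGANTCA and 8.53% held TGTGGT. A match is a string of letters and was not tested as a binding site.

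Across the transcriptome, 8006 genes outside the rule had at least 500 UMIs over the tumor cells of each library. In Olaparib + LLY-283, 466 of them (5.82%) were at least 1.5-fold higher in members and 344 (4.3%) at least 1.5-fold lower. In Combo these were 636 (7.94%) and 705 (8.81%). In both libraries, 354 genes (4.42%) were higher and 265 (3.31%) lower, 0 were 1.5-fold higher in one and 1.5-fold lower in the other, and the median log2 ratio over all genes was 0.02 in each. Across these genes, which are not independent replicates, the log2 ratios of the 2 libraries had a Pearson r of 0.834 and a Spearman rho of 0.7999. The rate over all genes is the background for the lists below, whose counts have no test.

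**Figure D3:**
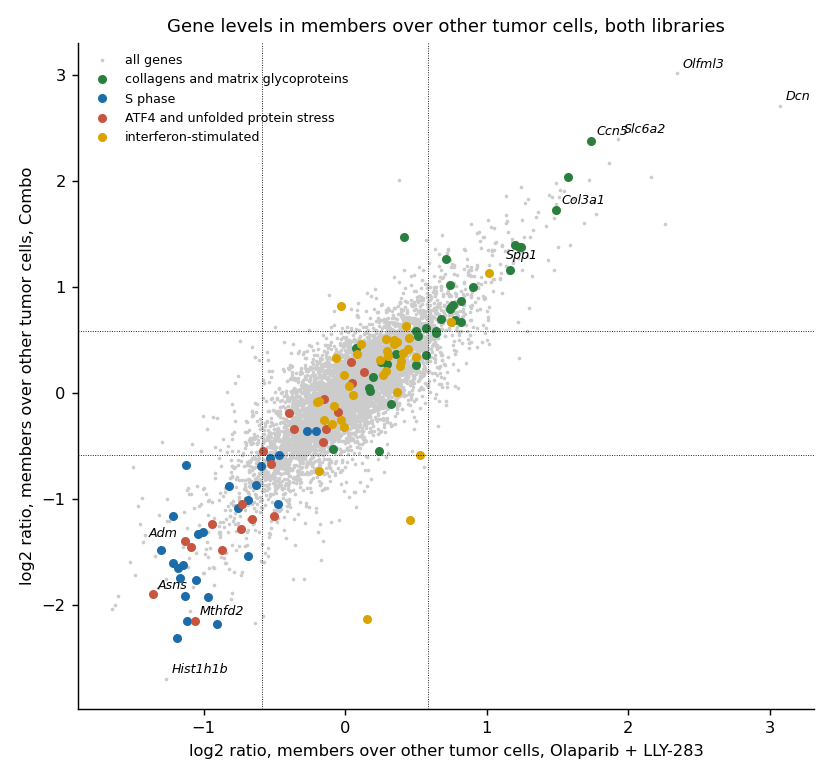
Log2 ratio of the level in members to that in other tumor cells for 8006 genes, Olaparib + LLY-283 on the x axis and Combo on the y axis. Gray points are all genes, colored points are genes of several lists, and dotted lines mark 1.5-fold. The gray cloud lies along the diagonal, most collagens and matrix glycoproteins lie above 0 on both axes and S phase genes below 0 on both.

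Among the genes counted, Dcn ranked highest by the smaller of its 2 ratios. It encodes decorin, a proteoglycan that binds collagen fibrils and TGF-β, and was at 494 CPM in members and 58.7 CPM in other tumor cells of Olaparib + LLY-283, a ratio of 8.41 [7.97 to 8.87]. That ratio starts from a level not above background, since immune cells of the same library had 61.9 CPM of Dcn. In Combo it was at 1036 and 158 CPM, a ratio of 6.54 [6.32 to 6.76]. After thinning, Dcn was found in 37.3% and 56.1% of members, 7.67% and 14.2% of other tumor cells and 4.84% and 4.49% of immune cells. In other members of the small leucine-rich proteoglycan family the ratios were 3.57 [2.42 to 5.05] and 7.69 [5.85 to 10.0] for lumican (Lum) and 4.15 [2.53 to 6.46] and 10.3 [6.41 to 16.4] for Prelp, both from levels of at most 18.4 CPM in members. In Olaparib + LLY-283, Lum was at 8.69 CPM in members beside 8.01 CPM in immune cells, and Prelp at 5.65 beside 7.57 CPM. Prelp was thus below this background there, and Lum was not above it beyond counting error. Immune cells of Combo had 2.63 CPM of Lum and 0.614 CPM of Prelp, against 18.4 and 7.21 CPM in members. In Combo, 5 members held 63.0% of the 92 member UMIs of Lum and 58.3% of the 36 of Prelp. Podnl1, a family member that is less well known, went the other way, at 64.9 CPM in members and 94.7 CPM in other tumor cells of Olaparib + LLY-283 and at 47.9 and 80.4 CPM in Combo. Of the 15 genes listed, 3 were abundant enough to count, of which 2 (Dcn and Bgn) were higher in both libraries. Bgn, which encodes biglycan, had ratios of 2.33 [1.87 to 2.86] and 1.59 [1.32 to 1.89], and 5 members held 29.2% and 57.7% of its member UMIs. In Olaparib + LLY-283, 4 of the 15 had no UMI in members, and in Combo 5.

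Collagens were higher in members as a group. Of 12 collagen genes counted, 8 were at least 1.5-fold higher in both libraries and 0 lower, with a median log2 ratio of 0.71 and 0.69. Col3a1, a chain of the fibrillar collagen of soft tissue, was at 1194 CPM in members and 424 CPM in other tumor cells of Olaparib + LLY-283, a ratio of 2.81 [2.73 to 2.90], and at 1569 and 473 CPM in Combo, a ratio of 3.32 [3.24 to 3.40]. Immune cells, given as background, had 418 and 135 CPM of Col3a1. Other tumor cells of Olaparib + LLY-283 were thus not above this background beyond counting error, while those of Combo were. The chains of microfibrillar collagen VI followed, with ratios of 2.34 [2.24 to 2.46] and 2.60 [2.50 to 2.71] for Col6a1 and 2.30 [2.16 to 2.45] and 2.63 [2.49 to 2.77] for Col6a2. Both chains of collagen I were closer to the limit, Col1a1 at 1.87 and 2.01 and Col1a2 at 1.60 and 1.62. The collagen genes together made up 5891 and 6798 CPM in members and 3219 and 3495 CPM in other tumor cells.

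Among matrix glycoproteins and crosslinking enzymes, 10 of 23 genes counted were higher in both libraries and 0 lower. Ccn5, a secreted growth regulator of the CCN family, was at 67.8 CPM in members and 20.3 CPM in other tumor cells of Olaparib + LLY-283, a ratio of 3.33 [2.93 to 3.78], and the ratio in Combo was 5.20 [4.67 to 5.78]. Thrombospondin 2 (Thbs2), an inhibitor of angiogenesis, had ratios of 2.97 [2.60 to 3.38] and 4.09 [3.67 to 4.55]. Fibronectin (Fn1), abundant in all tumor cells, had ratios of 1.67 [1.63 to 1.72] and 1.73 [1.69 to 1.77], and Igfbp7 of 2.36 [2.29 to 2.44] and 2.60 [2.52 to 2.68]. Serpinh1, the chaperone of newly made collagen, was close to equal, with ratios of 1.15 and 1.11. Olfactomedin-like Olfml3 and Olfml2b, both secreted, stood among the 15 highest genes, Olfml3 with ratios of 5.07 [4.28 to 5.98] and 8.10 [7.10 to 9.23] and Olfml2b with 3.41 [2.95 to 3.92] and 3.22 [2.80 to 3.69]. Olfml3 was at 43.4 and 77.1 CPM in members and 8.58 and 9.52 CPM in other tumor cells. Immune cells had 30.3 and 31.0 CPM of it, so that its ratios start from levels below those of immune cells.

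Of 13 matrix proteases and inhibitors counted, 4 were higher in both libraries. The gelatinase Mmp2 was at 122 CPM in members and 55.6 CPM in other tumor cells of Olaparib + LLY-283 and at 166 and 72.6 CPM in Combo, with ratios of 2.20 [2.00 to 2.40] and 2.29 [2.12 to 2.46]. The aggrecanase Adamts5 had ratios of 2.05 [1.80 to 2.30] and 2.96 [2.71 to 3.22]. The tissue inhibitors Timp2 and Timp1 stayed under 1.5-fold, at 1.49 and 1.42 and at 1.31 and 1.26. Urokinase (Plau) was lower in members, with ratios of 0.693 [0.608 to 0.783] and 0.664 [0.593 to 0.740].

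Of 21 genes of bone and mineralization listed, 5 were abundant enough to count, of which 2 (Spp1 and Ank) were higher in both libraries and 0 lower. Osteopontin (Spp1), a phosphoprotein that binds mineral, was at 7824 CPM in members and 3660 CPM in other tumor cells of Olaparib + LLY-283 and at 8574 and 3688 CPM in Combo, ratios of 2.14 [2.11 to 2.16] and 2.33 [2.30 to 2.35]. The pyrophosphate exporter Ank had ratios of 2.51 [2.38 to 2.64] and 2.90 [2.74 to 3.07]. Enpp1, which makes pyrophosphate outside the cell and is a relative of Enpp2, had ratios of 3.23 [2.87 to 3.61] and 3.03 [2.70 to 3.40]. Immune cells had 43.2 and 38.7 CPM of Enpp1, above the 26.1 and 24.5 CPM of other tumor cells. The bone transcription factor Runx2 had lower ratios, 1.25 [1.07 to 1.44] and 1.37 [1.19 to 1.57]. Of the 21 listed, 10 and 8 had no UMI in members. Among those with too few UMIs to count, Dmp1 had 18 and 38 UMIs in members. Its ratios were 10.7 [5.36 to 21.0] and 22.0 [12.7 to 39.8]. Postn had ratios of 3.49 [2.40 to 4.91] and 3.12 [2.04 to 4.55], and Phex was lower, at 0.430 [0.125 to 0.934] and 0.790 [0.399 to 1.33]. In the cartilage list, 11 of 20 genes had no UMI in members of either library, and 2 were abundant enough to count. Matn2 was higher in both libraries, with ratios of 2.05 [1.83 to 2.29] and 2.46 [2.23 to 2.70]. Sox9, the regulator of cartilage genes, had ratios of 0.780 and 0.712.

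In the lists of the vitamin K cycle and of autotaxin, few genes were abundant enough to count. Vkorc1, the reductase that restores vitamin K for Gla proteins, was at 36.9 CPM in members and 20.7 CPM in other tumor cells of Olaparib + LLY-283 and at 43.1 and 22.9 CPM in Combo, ratios of 1.79 [1.51 to 2.09] and 1.88 [1.62 to 2.17]. It was the only gene of 3 counted in that list that was higher in both libraries. Below the minimum for counting, Pros1, which encodes the Gla protein S, had 33 and 42 UMIs in members and ratios of 4.07 [2.64 to 6.02] and 1.90 [1.32 to 2.61], and Ggcx, the carboxylase that makes Gla residues, had ratios of 2.12 [1.59 to 2.77] and 1.25 [0.915 to 1.64]. Of 7 autotaxin pathway genes counted, Enpp1 alone passed 1.5-fold in both libraries, although 6 had ratios above 1 in each. Lpar1, a receptor for lysophosphatidic acid, had ratios of 1.49 [1.26 to 1.75] and 2.05 [1.78 to 2.34].

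Signaling genes among the 15 highest included Spry1, a feedback inhibitor of receptor tyrosine kinase signaling, with 56.2 CPM in members and 15.4 CPM in other tumor cells of Olaparib + LLY-283 and 67.9 and 15.1 CPM in Combo. Its ratios were 3.65 [3.16 to 4.19] and 4.51 [3.97 to 5.11]. Dusp4, a phosphatase induced by ERK, was among the 15 lowest, at 9.77 and 30.0 CPM and at 5.81 and 22.3 CPM, ratios of 0.329 [0.237 to 0.438] and 0.265 [0.174 to 0.376]. Of 13 EGF family and ERK output genes counted, 1 was higher and 3 lower in both libraries. The EGF receptor ligand Areg had ratios of 0.686 [0.648 to 0.724] and 0.362 [0.329 to 0.398]. The Wnt receptor Fzd1 had ratios of 2.87 [2.41 to 3.38] and 3.77 [3.22 to 4.38]. In the TGF-β list, 4 of 20 genes were higher and 1 lower in both libraries, among them the ligand Tgfb3 (1.70 and 2.31) and the latent-complex proteins Ltbp2 (2.05 and 2.55) and Ltbp3 (1.66 and 2.06). The lower gene was the stress cytokine Gdf15, with ratios of 0.416 [0.314 to 0.534] and 0.297 [0.205 to 0.406].

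Other genes among the 15 highest had varied roles. The norepinephrine transporter gene Slc6a2 had ratios of 3.80 [3.19 to 4.50] and 5.28 [4.626 to 5.997] and was found after thinning in 8.47% and 14.8% of members. Nrep, Anpep, Kazald1, Pde5a and Trib2 had ratios between 2.93 and 4.79. Immune cells had 40.5 and 36.6 CPM of Anpep, beside 30.2 and 48.5 CPM in members and 9.17 and 12.1 CPM in other tumor cells. Anpep encodes an aminopeptidase of the cell surface and Pde5a the phosphodiesterase of cyclic GMP.

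Genes of the cell cycle were lower in members. Of 26 S phase genes, 21 were at least 1.5-fold lower in both libraries and 0 higher, and all 26 had ratios below 1 in each, with a median log2 ratio of -0.99 in Olaparib + LLY-283 and -1.32 in Combo. Mcm6, a subunit of the replicative helicase, was at 21.1 CPM in members and 52.1 CPM in other tumor cells of Olaparib + LLY-283, a ratio of 0.406 [0.327 to 0.495], and at 18.8 and 52.8 CPM in Combo, a ratio of 0.358 [0.287 to 0.438]. Hells, a chromatin remodeler of S phase, had ratios of 0.430 and 0.330. Of 15 G2 and mitosis genes counted, 10 were lower and 0 higher, Bub1 at 0.357 and 0.305 and Top2a at 0.541 and 0.405. Cells with high mitotic transcripts had been removed from members and other tumor cells alike by the rule, and S phase genes were not part of it.

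The cell cycle inhibitor Cdkn1a was not higher but lower, at 108 and 173 CPM and at 73.3 and 135 CPM, ratios of 0.625 [0.569 to 0.683] and 0.546 [0.489 to 0.605]. Of 16 inhibitors and p53 targets counted, 1 was higher and 1 lower in both libraries, and the list had a median log2 ratio of 0.03 and -0.13.

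In the ATF4 and unfolded protein list, 9 of 21 genes were at least 1.5-fold lower in both libraries and 0 higher. Asns, which makes asparagine, was at 39.1 CPM in members and 100.6 CPM in other tumor cells of Olaparib + LLY-283, a ratio of 0.390 [0.333 to 0.451], and at 28.2 and 105 CPM in Combo, a ratio of 0.269 [0.225 to 0.317]. Phgdh and Psph of the serine pathway had ratios of 0.520 and 0.426 and of 0.471 and 0.366, and Mthfd2 of mitochondrial folate metabolism had 0.479 and 0.226. Hspa5, the main chaperone of the endoplasmic reticulum, had ratios of 0.900 [0.869 to 0.932] and 0.961 [0.929 to 0.993]. The 9 lower genes belong to amino acid and folate metabolism, cystine transport and the ATF4 response (Asns, Psat1, Phgdh, Psph, Shmt2, Mthfd2, Slc7a11, Chac1 and Trib3).

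Other genes among the 15 lowest were Pgf, a growth factor of vessels, with ratios of 0.319 [0.202 to 0.465] and 0.245 [0.132 to 0.393], and Upp1, uridine phosphorylase, with 0.325 [0.247 to 0.414] and 0.251 [0.187 to 0.324]. The hypoxia-induced peptide gene Adm was at 74.1 CPM in members and 199 CPM in other tumor cells of Olaparib + LLY-283 and at 92.6 and 245 CPM in Combo, ratios of 0.372 [0.332 to 0.414] and 0.378 [0.344 to 0.414]. Of 25 hypoxia and glycolysis genes, 3 were lower (Adm, Slc2a1 and Ankrd37) and 0 higher in both libraries. Gmnn, Psmc3ip, Fam111a, Aif1l, Hist1h1b and Hmga1b completed the lowest genes, with ratios between 0.155 and 0.426. Hmga1b is a near copy of Hmga1, and how reads were shared between them is not known here.

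**Figure D4:**
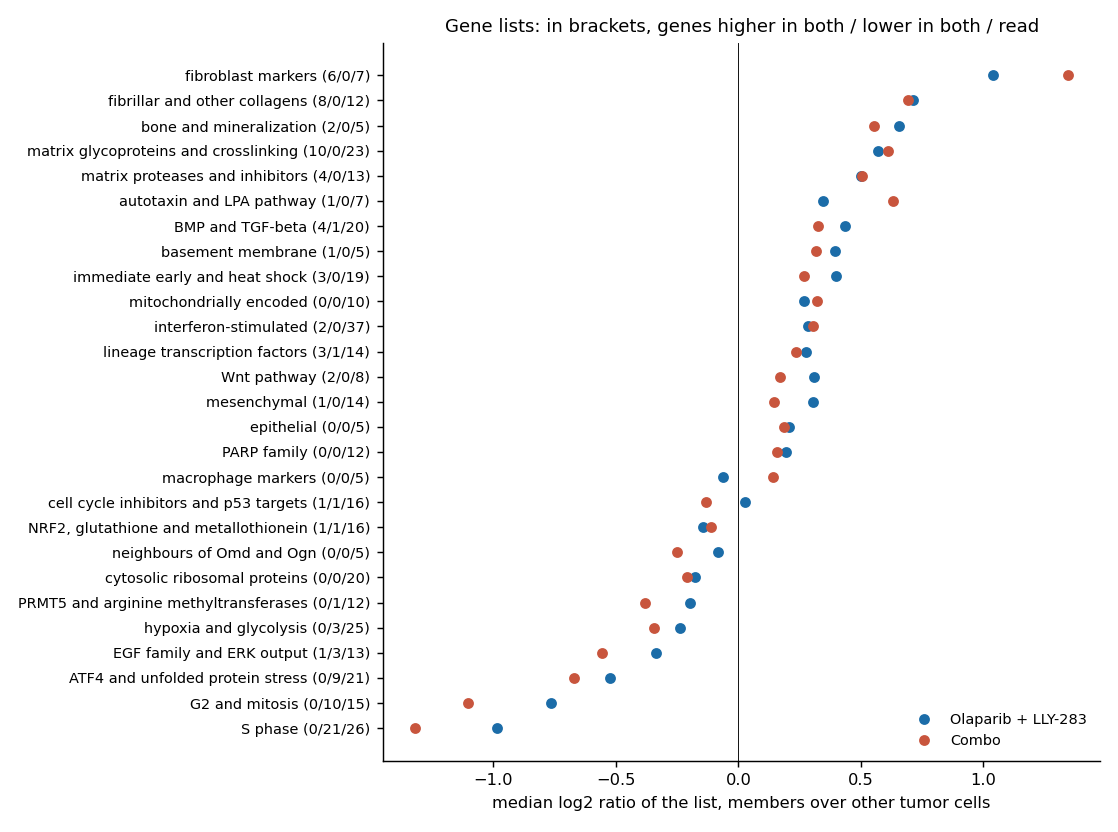
Median log2 ratio of members over other tumor cells for each gene list with at least 5 genes counted, in both libraries. The x axis is the median log2 ratio, each row is a list, and the numbers in brackets are the genes at least 1.5-fold higher in both libraries, those lower in both and all counted. Fibroblast markers and collagens are at the top and S phase at the bottom, with medians of 1.04 and 1.34 for fibroblast markers and of -0.99 and -1.32 for S phase.

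The other lists are given by their counts. Of 37 interferon-stimulated genes counted, 2 were higher in both libraries (Ifi44 and H2-T23) and 0 lower in both, with 4 higher and 4 lower in Combo and 2 higher and 0 lower in Olaparib + LLY-283, beside 8.81% of all genes counted that were lower in Combo. Cxcl10, a chemokine for T cells, had a ratio of 0.228 [0.141 to 0.337] in Combo and 1.12 [0.880 to 1.38] in Olaparib + LLY-283. Among MHC class I genes, H2-T23 had ratios of 1.68 [1.49 to 1.89] and 1.59 [1.44 to 1.75], with H2-D1 at 1.36 [1.33 to 1.39] and 1.33 [1.31 to 1.36] and B2m at 1.29 [1.26 to 1.31] and 1.39 [1.37 to 1.42]. Of 14 mesenchymal genes counted, 1 was higher, the transcription factor Prrx2 with ratios of 1.66 and 1.89, while vimentin (Vim) was at 0.930 and 0.937. The drug target Prmt5 was at 20.8 CPM in members and 32.7 CPM in other tumor cells of Olaparib + LLY-283 and at 21.2 and 32.4 CPM in Combo, ratios of 0.641 [0.514 to 0.783] and 0.659 [0.534 to 0.798]. It was the only one of 12 arginine methyltransferase and partner genes to be 1.5-fold lower in both libraries. Of 12 PARP family genes counted, 0 passed in either direction in both libraries. In the list of lineage transcription factors, 3 of 14 were higher, Nfib (1.52 and 2.00), Foxc1 (1.76 and 1.95) and Trp63 (1.66 and 2.55), and Hmga1 was lower.

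Since fibroblasts are known to make several of the transcripts found in members, the members were compared with the 173 and 52 cells that had at least 0.05% of UMIs from Col5a2 and little keratin or immune RNA. Of the choosing genes, for which members were selected and fibroblasts were not, Mgp was at 94.6 and 20.1 CPM in fibroblasts, Ogn at 572 and 366 CPM and Enpp2 at 17.6 and 16.3 CPM. These levels are given as a description beside those of the members above. Among genes outside the rule, Dcn was at 3495 and 3904 CPM in fibroblasts, Aspn at 283 and 251 CPM and Col3a1 at 20182 and 22583 CPM, each above the members. The fibroblast markers did not behave alike in members. Collagen genes and Dcn were high in them, as given above, while Thy1, Dpt and Meg3, named after their values were seen, were close to 0. Thy1 was at 0.434 and 1.00 CPM in members and 322 and 499 CPM in fibroblasts, Dpt at 1.52 and 2.20 CPM against 968 and 1045 CPM, and Meg3 at 0.869 and 0.801 CPM against 841 and 1112 CPM. In both libraries Fap, Fgf7, Lum, Mfap5 and Postn, all too low to count, were above other tumor cells beyond counting error. Fap was at 1.95 and 3.21 CPM in members and 0.314 and 0.114 CPM in other tumor cells. Clec3b, Dpt and Pi16 were higher in this way in Combo only, and Lrrc15 in Olaparib + LLY-283 only. Thy1, Meg3, Cd34 and Cygb were so in neither library.

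**Figure D5:**
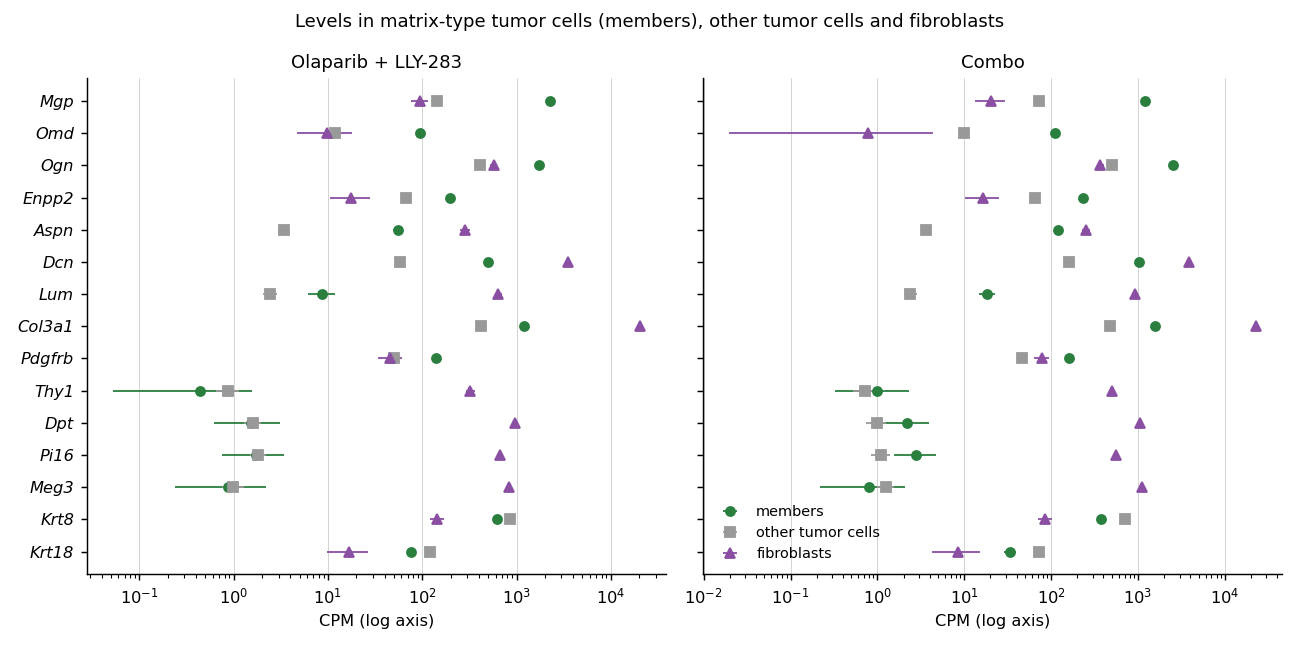
Levels of 15 genes in members, other tumor cells and fibroblasts of the Olaparib + LLY-283 library (left) and the Combo library (right). The x axis is CPM on a log scale, points are summed levels and bars are 95% Poisson intervals. Members lie above both other groups for Mgp, Omd, Ogn, Enpp2 and Pdgfrb and lie far below fibroblasts for Thy1, Dpt, Pi16 and Meg3. Of these, Dpt and Pi16 lie above the other tumor cells in Combo, with ratios of 2.33 [1.07 to 4.32] and 2.63 [1.33 to 4.60].

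The whole list of 20 fibroblast markers summed to 5581 and 6859 CPM in members, 2753 and 3096 CPM in other tumor cells and 53007 and 65682 CPM in fibroblasts. Its most abundant gene in members was Col1a2, at 2383 and 2557 CPM. Of 7 of these markers that were counted, 6 were higher in members of both libraries, among them the receptor gene Pdgfrb, at 139 and 160 CPM in members, 49.6 and 46.5 CPM in other tumor cells and 45.8 and 78.3 CPM in fibroblasts. Macrophage markers summed to 154 and 186 CPM in members and 170 and 189 CPM in other tumor cells, with Lyz2 the most abundant. Neutrophil markers summed to 264 and 314 CPM and 218 and 269 CPM, with S100a9 the most abundant, and T and NK markers to 0.869 and 1.80 CPM and 1.90 and 1.83 CPM. Of the endothelial and mural markers, Rgs5 and Myh11 had no UMI in members of Olaparib + LLY-283 and Cdh5, Cldn5 and Myh11 none in those of Combo, and the list summed to 14.3 and 8.21 CPM, against 14.6 and 14.5 CPM in other tumor cells. The part of other cell types' RNA in the members' ratios was not tested.

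The tumor markers themselves were lower in members. Krt8 was at 627 CPM in members and 861 CPM in other tumor cells of Olaparib + LLY-283, a ratio of 0.728 [0.701 to 0.756], and at 378 and 715 CPM in Combo, a ratio of 0.528 [0.504 to 0.553]. Krt18 had ratios of 0.637 and 0.470. Epcam was at 3.26 and 4.41 CPM in members and 3.50 and 2.96 CPM in other tumor cells, so that it marked neither. The 4.40% and 1.29% of members that had the highest doublet scores were fewer than the 11.4% and 2.37% of other tumor cells.

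When only cells without any UMI of Tyrobp, Ptprc or Col5a2 were used, the highest 10% of the cells left were 528 and 65 newly chosen members, and Dcn had a log2 ratio of 3.13 and 2.60, against 3.07 and 2.71 for all members. The counts of genes higher and lower in both libraries were then 205 and 138 of 5153 genes.

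Members led by Mgp and members led by Ogn were alike in some genes and not in others. Split by which of the 2 had more UMIs, 257 and 33 members were on the Mgp side and 339 and 122 on the Ogn side. Dcn was at 504 and 455 CPM in the Mgp and Ogn sides of Olaparib + LLY-283, a ratio of 1.11 [1.02 to 1.21], and at 1556 and 908 CPM in Combo, a ratio of 1.71 [1.61 to 1.82]. Ccn5 was lower on the Mgp side, with ratios of 0.429 [0.329 to 0.552] and 0.516 [0.379 to 0.679], and Slc6a2 with 0.386 [0.266 to 0.543] and 0.649 [0.460 to 0.880]. Krt8 and Krt18 were higher on the Mgp side, Krt8 with ratios of 1.30 [1.20 to 1.40] and 1.40 [1.26 to 1.55] and Krt18 with 1.47 [1.19 to 1.84] and 2.08 [1.48 to 2.87]. Aspn did not differ by side in Olaparib + LLY-283 beyond counting error (1.04 [0.803 to 1.35]) and was 3.15-fold [2.67 to 3.72] higher on the Mgp side in Combo, where this side was 33 cells.

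The members were compared with the tumor cells that were highest in 2 other gene sets. Of the highest 10% of tumor cells by summed Sox9, Areg, Bdnf and Adm, 28 of 614 (4.56% [3.05 to 6.52]) were members in Olaparib + LLY-283 and 4 of 155 (2.58% [0.708 to 6.48]) in Combo. Of the highest 10% by Klk10, Cst6 and Sfn, 48 (7.82% [5.82 to 10.2]) and 13 (8.39% [4.54 to 13.9]) were members. Members were 10% of all tumor cells by construction. The share of Sox9, Areg, Bdnf and Adm cells among members lay below 10% beyond counting error in both libraries, and that of Klk10, Cst6 and Sfn cells included 10% in its interval.

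Since the rule kept the same share of cells in each library, the groups were compared by level and by the share of cells over a fixed limit. Over all tumor cells the 4 genes summed to 908 CPM [901 to 916] in Olaparib + LLY-283 and 911 CPM [904 to 919] in Combo, a ratio of 1.00 [0.992 to 1.01]. The sum hid opposite differences. Mgp was at 300.0 CPM [296 to 304] in Olaparib + LLY-283 and 159 CPM [156 to 162] in Combo, a ratio of Combo to Olaparib + LLY-283 of 0.530 [0.517 to 0.542]. Ogn was at 513 CPM [507 to 519] and 658 CPM [651 to 664], a ratio of 1.28 [1.26 to 1.30]. Omd (18.1 and 17.6 CPM) and Enpp2 (77.5 CPM in each) had ratios of 0.972 [0.895 to 1.06] and 1.00 [0.962 to 1.04].

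The same directions held within members and within other tumor cells for Mgp and Ogn, with ratios of Combo to Olaparib + LLY-283 of 0.539 and 0.509 for Mgp and 1.45 and 1.22 for Ogn. Dcn was higher in Combo in members (494 and 1036 CPM, a ratio of 2.10 [2.00 to 2.20]) and in other tumor cells (58.7 and 158 CPM, a ratio of 2.70 [2.59 to 2.81]). Immune cells, given as background, had 103 and 31.1 CPM of Mgp, 181 and 72.9 CPM of Ogn and 61.9 and 28.3 CPM of Dcn. Mgp in other tumor cells of Olaparib + LLY-283 was thus 144 CPM beside 103 CPM in immune cells of the same library, and the part of such background in its difference between groups was not tested. Dcn in other tumor cells of Olaparib + LLY-283 (58.7 CPM) was below the 61.9 CPM of immune cells there, so that its ratio between groups in other tumor cells starts from a level not above background. As a share of the cells over a fixed limit, 554 tumor cells of Olaparib + LLY-283 (9.02% [8.31 to 9.76]) were over the limit of Combo, and 169 of Combo (10.9% [9.43 to 12.6]) were over that of Olaparib + LLY-283. With 1 library per group these values compare 2 libraries, not the conditions.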

How the data were processed

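The 10× Genomics 3′ libraries of EMT6 tumors were read, 1 for each group. The authors deposited counts of UMIs per gene and cell, not normalized. The genome build was mm10, and the matrix header gives Cell Ranger 6.1.2 where the study's methods give 7.0.0. All 55450 gene identifiers were found in GENCODE M21, whose positions are given. Members and gene lists were chosen with earlier results of these data known. Counts were summed over the cells of a kind within a library and given as CPM, and ratios had 0.5 UMIs added to each count. Genes with at least 500 UMIs over the tumor cells of each library were counted, with the choosing and filter genes left out. Genes named are the choosing genes, the 15 with the highest and the 15 with the lowest ratio across both libraries, up to 4 of each list by level and by ratio, and defining markers. Of the 15 highest genes, 1 is not reported here. Other genes named in the text were picked after their values were seen. Fibroblasts had at least 0.05% of UMIs from Col5a2 and less than that from Krt8 and Krt18 and from Tyrobp and Ptprc. Immune cells, added after the data had been seen, had at least 0.05% from Tyrobp and Ptprc and less than that from the keratins. Doublets were not removed in the main result, because Scrublet's automatic threshold called 0 cells in either library. Thinning was to 2000 UMIs. The ratio calculation was tested on simulated data. Tools were Python 3.11.15, numpy 2.4.6, pandas 2.3.3, scipy 1.17.1, scanpy 1.11.5 and matplotlib 3.10.9.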

Additional observations from a re-analysis of the deposited data

How the results depend on the processing

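The counts of 354 genes higher and 265 genes lower in both libraries moved by over 1.5 times under several settings. They were 25 and 17 (of 934 genes) with cells thinned to 2000 UMIs. Without any UMI of Tyrobp, Ptprc or Col5a2 they were 205 and 138 (of 5153 genes, against 8006 in the main result). They were 682 and 416 with a minimum of 100 UMIs per gene and 88 and 48 at 2-fold. With members chosen on 1 of the 2 sets of UMIs, 214 were higher, and with the highest 20% of tumor cells kept, 176 were lower. The smaller log2 ratio of the 4 genes in UMIs that did not choose was 2.57. It was 2.80 and 2.28 with the highest 5% and 20% kept, 2.49 with at least 5000 UMIs per cell, 2.48 without any UMI of Tyrobp, Ptprc or Col5a2 and 2.25 after thinning. The smallest log2 ratio of a gene in cells chosen by the other 3 was 1.11. It was 1.18 and 1.01 with 5% and 20% kept, 1.21 without the cells of highest Scrublet score, 0.83 after thinning and 1.17 with cells weighted equally. The log2 ratio of the 4 genes between the libraries was 0.0048, 0.061 with at least 5000 UMIs and -0.015 with cells weighted equally, both outside its counting interval of -0.012 to 0.021. By construction, fewer UMIs and genes entered in the thinned and split settings and more genes (11069) with the minimum of 100 UMIs. Fewer cells and genes also entered without any UMI of Tyrobp, Ptprc or Col5a2. For the other settings the cause was not tested. The mitochondrial limit and leaving the 4 genes out of the totals kept the log2 ratios within their counting intervals and the counts within 1.5 times (357 and 265, and 360 and 258). Of 600 values of the 30 genes with the highest and lowest ratios, 513 stayed within their counting interval, 87 moved and 0 changed direction. The planned removal of doublets was not run, because the automatic threshold called 0 cells, and leaving out the cells of highest score was added after seeing the data. No paired analysis was possible because each group has 1 library.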

Other observations

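In the list of immediate early and heat shock genes, 3 of 19 genes counted were at least 1.5-fold higher in both libraries and 0 lower in both. Klf2, a transcription factor that responds quickly to stimuli, was at 368 CPM in members and 132 CPM in other tumor cells of Olaparib + LLY-283 and at 199 and 89.0 CPM in Combo, ratios of 2.78 [2.64 to 2.93] and 2.23 [2.08 to 2.39]. Fos and Zfp36 were higher as well, with ratios of 1.501 and 1.72 and of 1.78 and 1.65. The heat shock genes Hsp90aa1 and Hspb1, which did not pass 1.5-fold in Olaparib + LLY-283, had ratios of 0.680 [0.656 to 0.705] and 0.549 [0.529 to 0.570] and of 0.711 and 0.613.

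Of 16 NRF2, glutathione and metallothionein genes counted, 1 was higher and 1 lower in both libraries. In both, 10 had ratios below 1 and 4 above, with a median log2 ratio of -0.14 and -0.11. Gstm1, a glutathione transferase, was at 426 CPM in members and 217 CPM in other tumor cells of Olaparib + LLY-283. In Combo it was at 632 and 227 CPM, and the ratios were 1.97 [1.87 to 2.06] and 2.78 [2.67 to 2.89]. Gclm, the lower gene, had ratios of 0.653 [0.590 to 0.720] and 0.649 [0.586 to 0.716], and Hmox1 of 0.726 and 0.622. Fth1, the heavy chain of ferritin, was at 15653 and 11337 CPM and at 17348 and 9457 CPM, ratios of 1.38 and 1.83. Of the 20 cytosolic ribosomal protein genes, 0 passed 1.5-fold in both libraries in either direction and 1 was lower in Combo, with a median log2 ratio of -0.18 and -0.21, while the 10 mitochondrially encoded genes counted had a median log2 ratio of 0.27 and 0.32, with 0 of them past 1.5-fold in both libraries.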
